A study of Mus musculus with 45 samples.

Results

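Under-nutrition during suckling was examined after recovery on chow, by comparing inguinal fat of LUN mice with that of control mice at day 56. The comparison was taken from the sample titles and used 6 of the 45 arrays of the series, 3 for each of 2 of its 15 groups. The LUN pups grew up 8 to a litter, and from birth to weaning their dams were given 50% of the amount of a breeder diet (22 kcal% fat) that control dams ate. Control pups also grew up 8 to a litter, with dams on that diet ad libitum. All mice were male C57BL/6J. From weaning all of them ate a low fat chow (11 kcal% fat) until week 8, and they were housed singly from week 7. Another diet group of the same age, LON, came from litters of 4 whose dams ate a diet with 58 kcal% fat, and it is used only beside the comparison. Each group is 1 RNA pool of 12 mice measured on 3 arrays. The arrays are therefore technical replicates, and variation between mice of a group was not measured. Every test below measures the error between arrays of the pools compared, apart from the fit with pools as replicates.

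Inguinal fat is a subcutaneous depot. White adipocytes store triacylglycerol and secrete leptin, and scattered brown-like adipocytes burn fuel through the uncoupling protein UCP1. The depot lies under the skin beside the muscles of the flank and thigh, and it holds a lymph node. Skeletal muscle fibres are built from sarcomeres, in which myosin filaments pull on actin filaments once calcium binds the troponin complex. Fast fibres carry their own isoforms of troponin, alpha-actinin and myosin light chain, and muscle creatine kinase restores their ATP.

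The signal of 33012 probes was measured on each array, of which 14411 carry 1 gene symbol and stand for 13840 genes. For genes with several probes the brightest one was used. Signals below are quantile-normalized linear values in arbitrary units, and changes are log2 fold changes of LUN over control. White adipocyte markers were bright in both groups, with a summed signal over 19 genes of 4393000 to 5341000 on the LUN arrays and 4863000 to 5620000 on the control arrays. The 3 LUN arrays were less alike than the 3 control arrays, with a lowest pair at r = 0.891 against 0.933. That pair was LUN arrays 1 and 2, whose mean correlations with their own group were 0.897 and 0.898. Over all probes LUN array 3 correlated at r = 0.942 on average with the 3 control arrays and at 0.905 with the other LUN arrays, whereas LUN arrays 1 and 2 correlated at 0.904 and 0.903 with the control arrays and at 0.891 with each other. Its median raw intensity was 725.4, against 1026 and 1035 on LUN arrays 1 and 2 and 548.2 to 708.1 on the control arrays. Results that rest on LUN array 3 are therefore given with and without it, although arrays 1 and 2 alone are the less alike pair. LUN array 3 thus lay nearer to the control arrays over all probes. Its skeletal muscle signals, described below, were those of the LUN arrays.

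After chow, the test called 67 of 33012 probes different between LUN and control fat (limma, Benjamini-Hochberg adjusted p under 0.05 over all probes), 53 of them higher (0.161%) and 14 lower (0.0424%). They stand for 33 genes that were higher and 8 that were lower, and 25 of the 67 probes had no single gene symbol. Of the 33 genes that were higher, 12 belonged to a list of skeletal muscle markers and 3 to a list of epithelial markers, and Glycam1 of the lymph node vessels was among the 8 that were lower. None of the 19 white adipocyte markers and none of the 23 thermogenic brown fat genes passed the test in limma with all arrays, where 3 and 4 of them had an unadjusted p under 0.05. At an unadjusted p under 0.05, 2621 probes (7.94%) differed. Without LUN array 3, 238 probes were higher and 164 lower (0.721% and 0.497%), and 64 of the 67 probes were among them. Without LUN array 2 or without control array 3 the count of lower probes was 8.

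**Figure D1:**
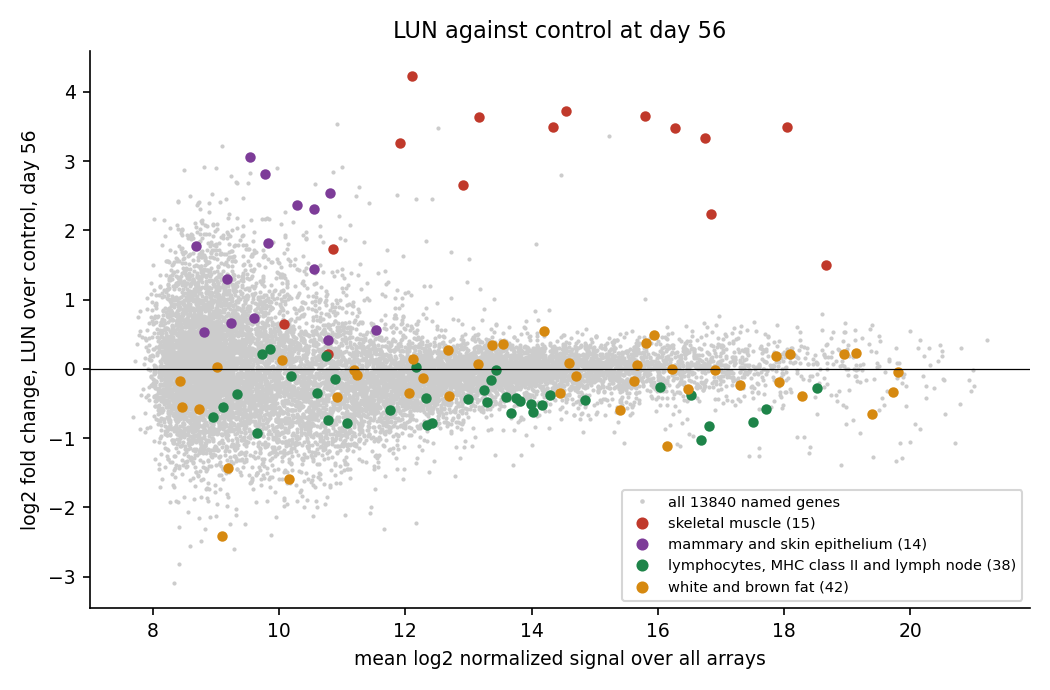
Log2 fold change of LUN over control at day 56 (vertical axis) against the mean log2 normalized signal over all 45 arrays (horizontal axis) for 13840 named genes, 1 point a gene. Most of the 15 skeletal muscle markers (red) stand far above the cloud, up to 4.23, with epithelial markers (purple) above it at low signal, lymphocyte and lymph node genes (green) mostly just below 0, and white and brown fat genes (orange) on both sides of 0.

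The clearest difference lay in genes of the contractile apparatus. Of 15 measured skeletal muscle markers, 12 were higher in LUN fat and none was lower, where 0.161% of all probes were higher. Their median log2 fold change was 3.33, against -0.04 over all named genes. It was 3.20 after median scaling, 3.55 after cyclic loess and 3.35 without LUN array 3, and 12 members passed whichever array was left out. The summed signal of the 15 genes was 1663000 to 1871000 on the LUN arrays and 288800 to 414400 on the control arrays. Signal in a pool of tissue does not separate a larger share of muscle in the dissected sample from more muscle RNA per cell, and the 2 cannot be told apart here.

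The sequences before the start sites of 4 of these genes are shown because they stand for the group that moved together. Each run holds the 250 bases before the annotated start, 5′ to 3′ on the strand of the gene, from RefSeq (GRCm38.p6). Capitals mark the E-box CANNTG, which myogenic bHLH factors bind, the TATA box TATAAA and the CArG box of serum response factor, each searched on both strands along with the MEF2 box, which none of the 4 holds.
Acta1, chr8:123894776-123895025, minus strand: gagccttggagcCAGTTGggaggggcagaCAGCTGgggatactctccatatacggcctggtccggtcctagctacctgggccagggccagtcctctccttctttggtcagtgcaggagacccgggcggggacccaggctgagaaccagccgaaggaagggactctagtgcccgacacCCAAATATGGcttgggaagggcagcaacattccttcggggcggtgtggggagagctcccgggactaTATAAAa
Ckm, chr7:19410844-19411093, plus strand: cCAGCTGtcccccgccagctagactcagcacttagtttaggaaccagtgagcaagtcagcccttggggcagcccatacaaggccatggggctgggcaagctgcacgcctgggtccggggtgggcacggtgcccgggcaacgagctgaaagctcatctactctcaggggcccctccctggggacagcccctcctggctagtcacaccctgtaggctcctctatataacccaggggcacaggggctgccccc
Mylpf, chr7:127211358-127211607, plus strand: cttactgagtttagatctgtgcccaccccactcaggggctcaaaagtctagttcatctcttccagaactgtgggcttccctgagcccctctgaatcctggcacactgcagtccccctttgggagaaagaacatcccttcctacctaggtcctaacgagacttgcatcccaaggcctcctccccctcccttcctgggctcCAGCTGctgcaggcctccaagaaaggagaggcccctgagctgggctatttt
Tnnc2, chr2:164779735-164779984, minus strand: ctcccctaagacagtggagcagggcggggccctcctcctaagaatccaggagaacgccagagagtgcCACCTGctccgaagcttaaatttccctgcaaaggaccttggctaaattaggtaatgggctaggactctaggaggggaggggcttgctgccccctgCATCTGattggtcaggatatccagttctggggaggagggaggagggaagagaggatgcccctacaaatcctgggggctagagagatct

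Of the 15 measured muscle markers, whether they passed the test or not, 12 had a listed promoter. They are not the 12 that passed, as Tnnt3 and Actn3 passed and had no listed promoter. Of the 12 with a promoter, 10 (83.3%) held an E-box in these 250 bases, against 66.0% of all 27025 promoters. The short E-box motif is thus common everywhere. Acta1 alone held a CArG box, which 1.4% of all promoters hold, and it also had the letters of a TATA box, which 3 of the 12 (25.0%) and 13.0% of all promoters hold. The MEF2 box was in 2 of the 12 and in 1.73% of all. These matches describe letters in the window and say nothing of what bound there.

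Among the filament proteins, Acta1, the actin of adult skeletal muscle, had signals of 356700, 401700 and 398500 on the LUN arrays, against 30150, 34060 and 38810 on the control arrays. All 3 LUN arrays, array 3 included, lay above all control arrays by about an order of magnitude. The mean was 385700 ± 25100 in LUN and 34340 ± 4340 in control fat (SD, n = 3 arrays each), a ratio of 11.3 (log2 fold change 3.5, SE 0.22, limma adjusted p = 2.54e-13). Mybpc2, the fast isoform of myosin-binding protein C, gave 5910, 7474 and 9012 in LUN and 689.6, 196.2 and 445.1 in control fat. Its log2 fold change was 4.23 (SE 0.32, adjusted p = 4.32e-11, limma), but its control signals lay below that of the median probe (log2 9.56), so the size of this fold rests on low signals. Tpm1, a tropomyosin that smooth muscle and other cells also make, was higher by 3.36 and Ttn, the giant elastic protein of the sarcomere, by 3.26. Ttn had 2 probes, and only the brighter one, used here, passed. Its control signals were 985.4, 552.5 and 482.3, in part below that of the median probe. The regulatory light chain of fast fibres, Mylpf, had 163800, 125500 and 168500 in LUN against 17160, 13130 and 15050 in control fat, a log2 fold change of 3.33 (SE 0.27). Myl1, the alkali light chain, moved less, by 1.5 (SE 0.25).

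The troponin genes of fast fibres moved as a group. Tnnt3, fast troponin T, had 139500, 137000 and 96700 on the LUN arrays and 9923, 9464 and 9911 on the control arrays, and its log2 fold change was 3.65 (SE 0.20, limma adjusted p = 1.28e-14). Tnnc2, fast troponin C, had 132500, 187300 and 190700 in LUN against 14890, 14430 and 15910 in control fat, a change of 3.48. Tnni2, fast troponin I, changed by 2.23. The slow troponin T gene, Tnnt1, did not pass the test: its signals were 766.3, 1416 and 1079 in LUN and 1052, 1305 and 550.4 in control fat, with a log2 fold change of 0.21 (95% interval -0.84 to 1.27). Myoglobin (Mb), the oxygen store of oxidative fibres, gave 435.4, 5892 and 1037 in LUN and 410.3, 442.1 and 403.7 in control fat and did not pass either (adjusted p = 0.419, limma). Ryr1, the calcium release channel, was the other member that did not pass, with a change of 0.64 (95% interval -2.46 to 3.74). The intervals of these 3 genes were wide, and fast and slow genes were not tested against each other.

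**Figure D2:**
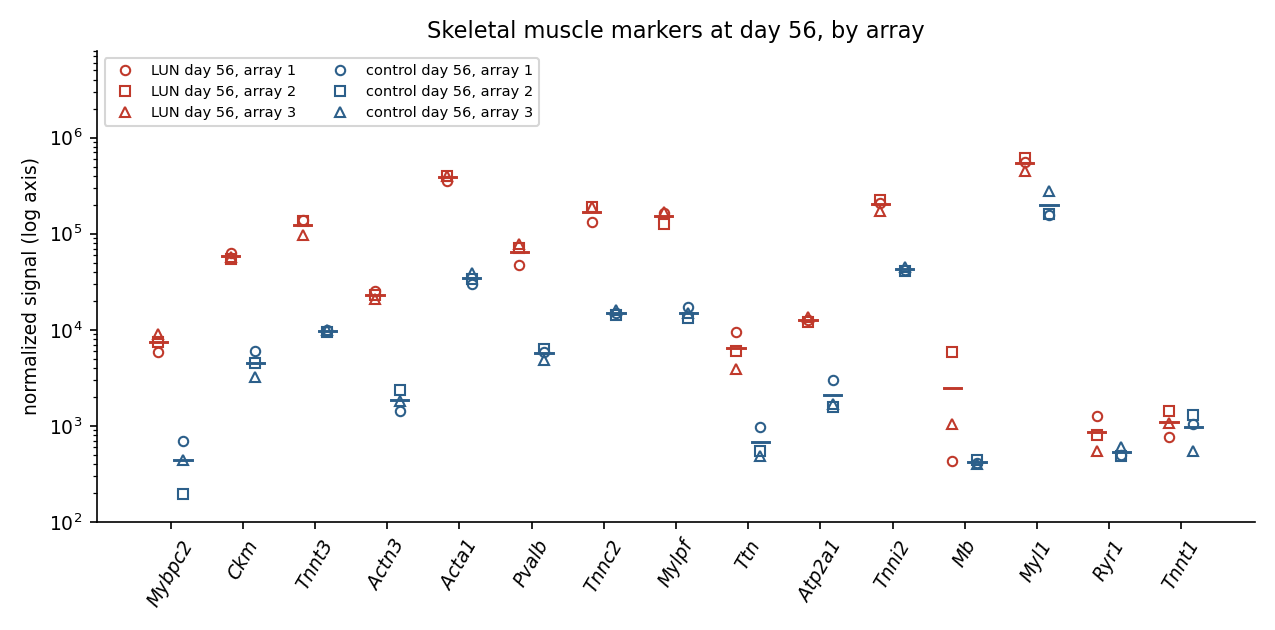
Normalized signal (log axis) of the 15 skeletal muscle markers on each array at day 56, LUN (red) left of control (blue) for each gene, with bars at the group means. For 12 genes no LUN array overlaps a control array, as for Acta1 with 356700 to 401700 in LUN and 30150 to 38810 in control fat, while Mb, Ryr1 and Tnnt1 overlap.

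Further muscle genes passed the test. Of those below, Myoz1, Myot, Pgam2 and Hrc, like Tpm1 above, are outside the list of 15 and were taken from the genes that passed. Actn3, the alpha-actinin of fast fibres, had 25390, 23060 and 20750 in LUN against 1436, 2390 and 1825 in control fat (log2 fold change 3.64, SE 0.24). Myoz1 and Myot, 2 Z-disc proteins, changed by 3.53 and 2.92. Ckm, muscle creatine kinase, had 63570, 55200 and 56780 in LUN against 5953, 4501 and 3226 in control fat, a ratio of 13.2 (log2 fold change 3.72, SE 0.19, limma adjusted p = 3.17e-15). Pgam2, the muscle isoform of phosphoglycerate mutase, changed by 3.48. Pvalb, the calcium buffer of fast fibres, gave 47770, 70250 and 77570 in LUN and 5932, 6304 and 4893 in control fat, a change of 3.49. Atp2a1, the calcium pump of the fast-fibre reticulum, changed by 2.66, and Hrc, a calcium-binding protein of the same reticulum, by 2.85. The control signals of Myoz1 (284.9 to 417.2) and Hrc (251.5 to 462.5) lay below that of the median probe. Those of Myot were 215.4, 155.6 and 1221, so the sizes of these folds rest on low signals. Smooth muscle genes did not share this pattern: 0 of the 11 measured smooth muscle and pericyte markers passed, and their median was -0.11. Of these 11, 2 had an unadjusted p under 0.05 (limma), where 7.94% of all probes did so.

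At days 21 and 112 the muscle signal differed in the opposite direction. At day 21, in arrays that share nothing with those of day 56, 12 of the 15 muscle markers were lower in LUN than in control fat, where 1.14% of all probes were lower and 1.57% higher, with a median of -1.70. At day 112, after 8 weeks on a high fat diet, 13 of 15 were lower, where 0.376% of all probes were lower and 0.176% higher, with a median of -2.30. Acta1 averaged 247400 ± 15500 in LUN and 938400 ± 96000 in control fat at day 21, and 179200 ± 7260 in LUN and 851600 ± 240000 in control fat at day 112. The LUN effect on Acta1 at day 56 exceeded that at day 21 by 5.42 (log2, limma adjusted p = 2.29e-14). The difference from day 21 passed for 12 of the 15 markers and that from day 112 for 13, all with the higher LUN effect at day 56, where 0.566% and 0.294% of all probes did so.

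Across ages the control pools spanned a wider range than the LUN pools. The median log2 signal of the 15 muscle markers in LUN fat was 12.09, 14.81, 15.51, 15.70 and 14.23 at days 5, 10, 21, 56 and 112, and in control fat it was 12.04, 12.43, 17.05, 12.11 and 16.76. In LON fat it was 11.38, 16.01, 15.08, 17.51 and 11.63. At day 10 LUN lay above control fat, as at day 56, and at day 5 they lay within the spread of their arrays. At day 56 the LON arrays lay above the LUN arrays and both above the control arrays, and at day 112 the control arrays lay highest. Within each group the 3 arrays differed little (SD 0.13 in LUN and 0.44 in control fat at day 56), so the pools differed by more than the spread of their arrays. With 1 pool a group, the spread between pools of the same diet was not measured, so diet and the tissue taken for a pool cannot be told apart in these levels.

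**Figure D3:**
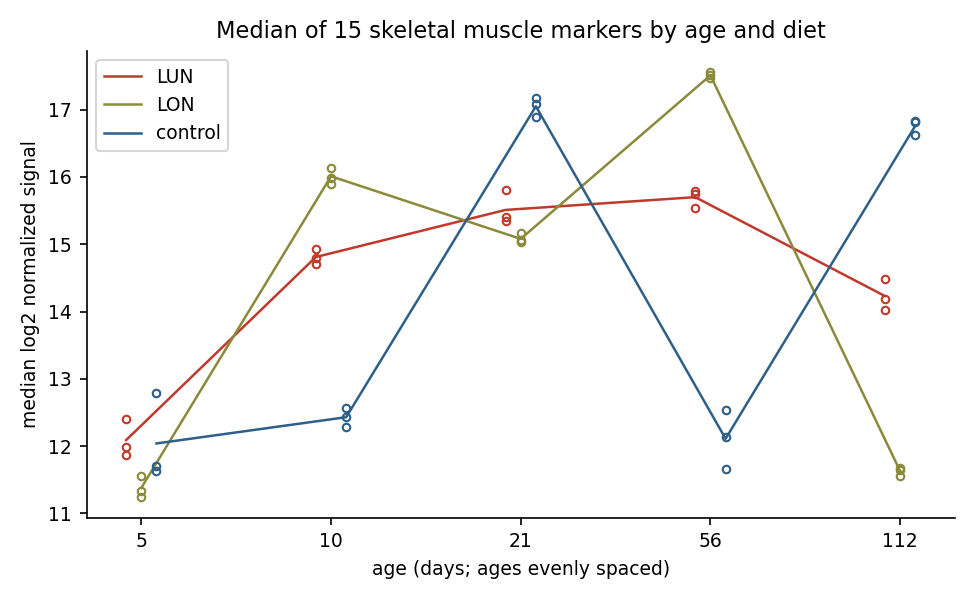
Median log2 normalized signal of 15 skeletal muscle markers (vertical axis) by age in days (horizontal axis, evenly spaced) in LUN (red), LON (olive) and control fat (blue), with open points for single arrays and lines through the means. The order of the diets changes with age: at day 56 LUN was at 15.70, LON at 17.51 and control at 12.11, and at day 112 LUN was at 14.23, LON at 11.63 and control at 16.76.

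In the LON comparison at day 56, which shares the control arrays, 13 of the 15 muscle markers were higher, where 0.654% of all probes were higher and 0.881% lower. For Acta1 the LON arrays averaged 1435000 ± 272000, and the log2 fold change over control was 5.38, beside 3.5 for LUN. For Ckm the LON mean was 205600 ± 23000 and the changes were 5.53 for LON and 3.72 for LUN. Both comparisons use the same low control values, so the similarity of their directions is not independent.

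Epithelial genes were the other group that was higher. Of 14 measured markers of mammary and skin epithelium, 3 passed the test as higher, where 0.161% of all probes did so. All 14 had a positive log2 fold change, as had 6356 of the 13840 named genes. Their median was 1.61, against -0.04 for all named genes. The LUN arrays lay above all control arrays for 9 of the 14, where 5.03% of all probes did so. The summed signal of the 14 genes was 29630 to 50560 on the LUN arrays and 10230 to 11940 on the control arrays. Krt18, a keratin of simple epithelia, had 4623, 3014 and 3485 in LUN against 639.4, 491.3 and 268.3 in control fat (log2 fold change 3.06, SE 0.45, limma adjusted p = 1.37e-04), and it lay below the median probe over the whole series. Csn3, the kappa-casein of milk, gave 14090, 3369 and 4221 in LUN and 861.1, 1129 and 595.1 in control fat, and without LUN array 1 or control array 3, or without the LON arrays, it no longer passed. Lor, the loricrin of the cornified skin layer, had 1566, 1027 and 1998 in LUN against 328.2, 229.5 and 306.2 in control fat, a change of 2.37 (SE 0.35). These control signals lay below that of the median probe, so the size of this fold rests on low signals.

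The epithelial genes that did not pass had wide intervals. Krt8, the partner keratin of Krt18, gave 5009, 6643 and 5019 in LUN and 1241, 916 and 745.1 in control fat (log2 fold change 2.54, 95% interval 1.16 to 3.92, limma adjusted p = 0.127). Epcam, an adhesion protein of epithelial cells, changed by 2.31 (1.23 to 3.39), and its adjusted p was 0.0564. Lalba, the milk protein alpha-lactalbumin, was at 8305 on LUN array 1 and at 311.4 and 551.3 on the other two, against 307.2 to 341.1 on the control arrays, so array 1 carried its difference as it carried part of that of Csn3. At day 21, 3 epithelial markers were higher in LUN fat, where 1.57% of all probes were higher. Lor was the single named gene called in the same direction at days 21 and 56, with 4727, 5215 and 5388 in LUN against 587.5, 462.9 and 347.9 in control fat at day 21. The median of the 14 epithelial markers was 0.90 at day 21, when the muscle markers were lower in LUN fat, so the 2 lists did not move together at both ages. In the LON comparison at day 56, 3 of the 14 were higher too, where 0.654% of all probes were. The LON median was 1.08, with 10 positive and 4 negative values, and Krt18 changed by 2.59 and Csn3 by 2.11. The LON and LUN comparisons share the control arrays and are not independent. Whether tissue next to the depot entered the pools was not tested.

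Genes of the lymph node leaned the other way. Glycam1, the mucin of high endothelial venules that lymphocyte L-selectin binds, had 55810, 60360 and 60360 on the LUN arrays against 112000, 131800 and 115600 on the control arrays. The 3 LUN arrays were tight and all below the control arrays, with a log2 fold change of -1.02 (SE 0.21, limma adjusted p = 0.0215). It was -1.04 without LUN array 3, and it no longer passed after median scaling or when any other array was left out. Of the 7 measured genes of lymph node stroma and germinal centres, Glycam1 was the only one that passed, where 0.0424% of all probes were lower. Ccl21a and Ccl19, which draw T cells and dendritic cells into the node, gave -0.77 (95% interval -1.22 to -0.32) and -0.83 (-1.58 to -0.07), and Cxcl13, which draws B cells into follicles, gave -0.50 (-0.82 to -0.19). For 5 of the 7 genes all LUN arrays lay below all control arrays, where 7.93% of all probes did so.

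Lymphocyte markers had small negative values that did not pass one by one. All 13 measured T cell and NK cell markers had a negative log2 fold change, with a median of -0.41. Of the 13840 named genes, 7484 had a negative value, with a median of -0.04 over all. For 6 of the T cell and NK cell markers all LUN arrays lay below all control arrays, where 7.93% of all probes did so. Cd3e, a chain of the T cell receptor complex, gave 2767, 3243 and 3072 in LUN and 4400, 5191 and 4169 in control fat (log2 fold change -0.60, 95% interval -1.06 to -0.13, adjusted p = 0.436, limma). Of 10 B cell and plasma cell markers, 8 were negative with a median of -0.53, and all 8 MHC class II genes were negative with a median of -0.40. The medians of the 4 lists stayed negative under median scaling, cyclic loess and without LUN array 3. The summed signal was 98800 to 122600 on the LUN arrays and 138200 to 153600 on the control arrays for the T cell list, and 89550 to 100900 in LUN and 125900 to 127000 in control fat for the B cell list. None of the T cell, B cell or MHC class II genes passed with all arrays. Of the 13, 10 and 8 genes, 4, 4 and 0 had an unadjusted p under 0.05 (limma), where 7.94% of all probes did so. At day 21 the medians were 0.13 for lymph node, 0.11 for T cell, 0.09 for MHC class II and -0.58 for B cell genes, so the B cell genes had about the same median at both ages. Cd4, the co-receptor of helper T cells, showed the weight of 1 array: it had 282 and 428.6 on LUN arrays 1 and 2, 1848 on LUN array 3 and 946.4 to 1416 on the control arrays, and it passed only without array 3 (log2 fold change -1.74, adjusted p = 0.016, limma).

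The other genes that were lower came from different pathways. Gtpbp2, a GTPase that helps to rescue stalled ribosomes, had 261, 605.6 and 352.4 in LUN against 1558, 1934 and 2730 in control fat, a log2 fold change of -2.40 (SE 0.51, adjusted p = 0.0288). Cmah, the enzyme that makes N-glycolylneuraminic acid, gave 559.2, 405.7 and 310.3 in LUN and 1392, 1614 and 2641 in control fat (-2.13, SE 0.45). Apbb1ip, an adaptor for integrin activation in blood cells, had 1065, 1297 and 4020 in LUN against 5245, 4821 and 5905 in control fat, so that LUN array 3 lay close to the control arrays; its change was -1.58, and -2.17 without that array. Ltbp4, a matrix protein that binds latent TGF-beta, changed by -1.11, Ccdc134 by -1.26 and Gramd3 by -1.19. Each of these 6 genes lost its call in 3 to 6 of the 6 fits that left out 1 array, and all 6 lost it without the LON arrays. Slc4a1, the anion exchanger of red cells, was higher by 2.52, but it had 4743 and 4566 on LUN arrays 1 and 2 and 574.1 on array 3, against 259.1 to 514.4 on the control arrays, and it lost its call in 5 of the 6 fits that left out 1 array. Hba-a1, an alpha-globin gene, did not pass (0.55, 95% interval -0.12 to 1.22).

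Fat genes showed little at day 56 beside what they had shown at weaning. The question here was whether the brown-like programme that under-nutrition lowers at day 21 differs after chow. Ucp1 had 156100, 191100 and 178500 on the LUN arrays against 120500, 114000 and 140500 on the control arrays at day 56. The LUN arrays lay just above the control arrays, and the log2 fold change was 0.49 (95% interval 0.03 to 0.94), which did not pass across all probes (adjusted p = 0.583, limma). At day 21 the LUN arrays averaged 161500 ± 12000 and the control arrays 779500 ± 133000, a log2 fold change of -2.26 (adjusted p = 2.98e-08, limma). The LUN effect on Ucp1 differed between the ages by 2.75 (limma adjusted p = 4.98e-07). At day 56 the mean was 175200 ± 17800 in LUN and 125000 ± 13800 in control fat, so the LUN means of the 2 ages lay close and the control means did not.

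Leptin took another course. Lep, the hormone gene that follows fat mass, had 34970, 33820 and 35860 in LUN against 43390, 42340 and 33120 in control fat at day 56. The groups overlapped, and the log2 fold change was -0.17 (95% interval -0.75 to 0.40). At day 21 it had 1069, 445.8 and 1222 in LUN against 57430, 37680 and 49140 in control fat, a change of -5.83, so the LUN effect differed by 5.65 between the ages (adjusted p = 6.84e-12, limma). Here the control means lay closer, at 48080 ± 9910 at day 21 and 39620 ± 5650 at day 56, than the LUN means of 912 ± 411 and 34880 ± 1020.

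No other marker of brown-like fat passed the test either. Fabp3, a fatty acid binding protein of oxidative tissue, gave 21970, 20870 and 15910 in LUN and 16500, 14860 and 14500 in control fat (log2 fold change 0.35, 95% interval -0.37 to 1.07), and its LUN effect differed from that at day 21 by 2.71 (limma adjusted p = 0.00172). Fabp3 is also made in muscle. Cidea, a lipid droplet protein, had 262100, 775200 and 847600 in LUN against 539300, 708300 and 659700 in control fat (-0.18, 95% interval -0.77 to 0.40), with LUN array 1 far below the rest. The 23 thermogenic genes had a median of 0.03 at day 56 and of -0.56 at day 21, and the difference between ages passed for 6 of them, 5 with the higher LUN effect at day 56, where 0.566% of all probes were higher and 0.827% lower in this difference. At day 56, 95% intervals excluded 0 for Ucp1, Plin5 (0.55, 0.12 to 0.98), Acot11 (-1.43, -2.68 to -0.18) and Kcnk3 (-2.41, -3.63 to -1.19), the last 2 from dim probes. Without LUN array 3 the median was -0.11 and 1 of the 23 passed at day 56, the potassium channel gene Kcnk3, a dim probe (-2.89, against -2.41 with all arrays). Among the thermogenic genes whose LUN effect differed between the ages were Plin5 and Ppara, a droplet protein and a nuclear receptor of oxidative cells. Their differences from day 21 were 1.19 and 1.46. The 41 mitochondrial genes that the study lists had a median of 0.10 at day 56 and -0.35 at day 21. None passed at day 56 or in the difference between the ages (limma). At day 56, 1 had an unadjusted p under 0.05, where 7.94% of all probes did so. The skeletal muscle markers differed between the ages in the same direction, with medians of -1.70 at day 21 and 3.33 at day 56. The part of muscle RNA in the thermogenic and mitochondrial lists, Plin5 and Ppara included, was not tested. After median scaling, which shifts the median of all probes to -0.20, the mitochondrial and thermogenic medians were -0.25 and -0.21.

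The 19 white adipocyte markers had a median of -0.29, against -0.04 for all named genes, with 5 positive and 14 negative values and none past the test. The values ran from -1.6 to 0.23. Their median was -0.535 after median scaling, where that of all probes was -0.201, and -0.168 after cyclic loess, where that of all probes was 0.023. For 5 of the 19 all LUN arrays lay below all control arrays, where 7.93% of all probes did so, and for none did they lie above. The median log2 signal of the list was 15.57 ± 0.37 in LUN and 16.22 ± 0.19 in control fat (SD, n = 3 arrays each). Fabp4, the adipocyte fatty acid binding protein, gave 789300, 711400 and 795600 in LUN and 864700, 764000 and 1339000 in control fat (-0.33, 95% interval -0.91 to 0.25). Adipor1, an adiponectin receptor, had 13530 on LUN array 1 and 70120 and 63570 on the other two, against 80680 to 87920 in control fat. All LUN arrays were lower, but the change of -1.11 (95% interval -1.77 to -0.46) did not pass with all arrays (limma adjusted p = 0.19), and it passed without LUN array 2 or without LUN array 3. Adipor2, the second receptor, changed by -0.02 (-0.71 to 0.67), Retn, the hormone resistin, by -0.34 (-1.08 to 0.39), Gpd1, which makes glycerol phosphate, by -0.04 (-1.09 to 1.00) and Scd1, a fatty acid desaturase, by 0.19 (-1.25 to 1.63). Lpl and Adipoq had no probe with 1 gene symbol here.

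**Figure D4:**
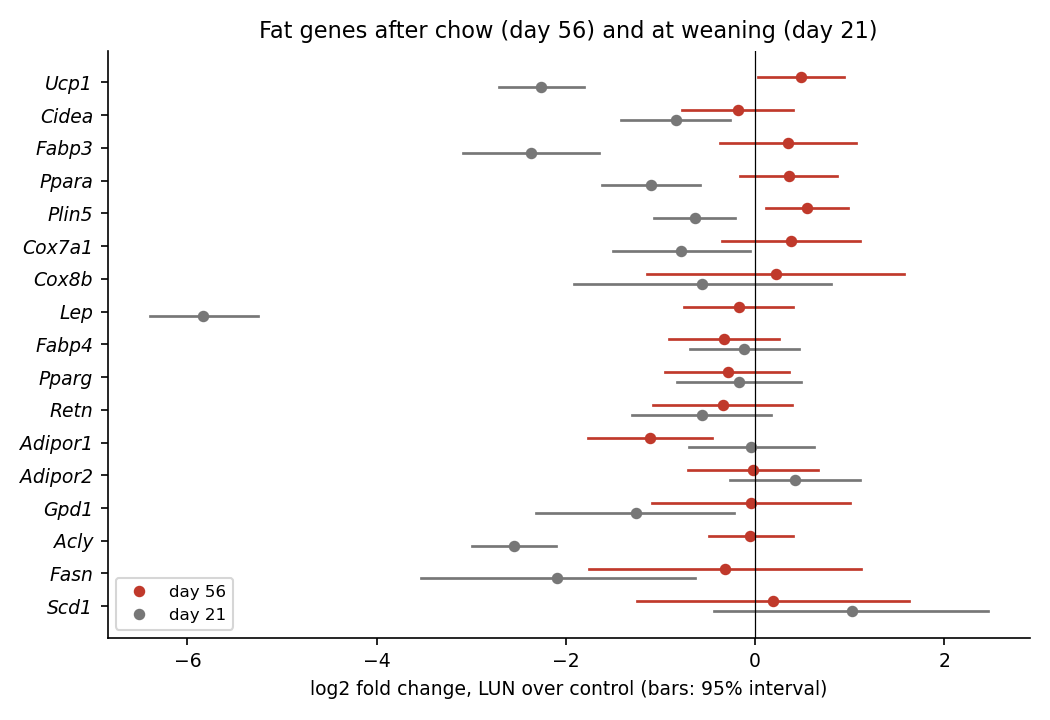
Log2 fold change of LUN over control (horizontal axis) with 95% intervals for 17 fat genes at day 56 (red, upper mark of each pair) and day 21 (grey), shown as examples picked with their values known. At day 56 the points lie between -1.11 for Adipor1 and 0.55 for Plin5, while Lep was at -5.83 and Ucp1 at -2.26 at day 21.

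Lipid and stress lists that differed at weaning had small medians after chow. The 17 fatty acid synthesis genes had a median of -0.05 at day 56 and -1.10 at day 21, where 5 were lower against 1.14% of all probes. Acly, which makes cytosolic acetyl-CoA, gave 86770, 107500 and 88870 in LUN and 104100, 90530 and 96700 in control fat at day 56 (-0.05, 95% interval -0.49 to 0.40), and its LUN effect differed from that at day 21 by 2.50 (limma adjusted p = 2.67e-06). The 20 genes of the glucocorticoid and fasting response had a median of -0.19 at day 56 and 1.01 at day 21, where 11 were higher against 1.57% of all probes. The LUN effect on 7 of them was lower at day 56 than at day 21, against 0.827% of all probes. Among these Tsc22d3, a glucocorticoid-induced regulator also called Gilz, differed by -1.95 and Fkbp5, a co-chaperone of the glucocorticoid receptor, by -2.38. Irf4, a transcription factor that fasting raises in fat, had 4275, 4536 and 5811 in LUN against 6927, 7664 and 5406 in control fat at day 56, and 143500, 160700 and 144000 in LUN against 7110, 9500 and 7803 in control fat at day 21. Its LUN effect differed by -4.66 (limma adjusted p = 8.14e-09).

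Over all probes the LUN effect was higher at day 56 than at day 21 for 187 probes and lower for 273 (0.566% and 0.827%, limma adjusted p under 0.05). With median scaling the split was 80 against 399, and with cyclic loess 280 against 222. Among bright, named probes whose LUN-minus-control differences, taken over all pairs of arrays, did not overlap between the 2 ages, the 10 largest positive differences were those of 9 muscle genes and Lep. Hjv, the iron regulator hemojuvelin that muscle makes, was one of them, with a change of 2.67 at day 56 and -2.70 at day 21. Its control signals at day 56 were low, at 242, 267 and 796.4. The 10 largest negative differences were those of genes that were higher in LUN fat at weaning, each past the test at day 21. Besides Irf4 and Gtpbp2 they were Hpd and Cyp2f2, enzymes of tyrosine breakdown and of xenobiotic oxidation, Acot1 and Acot5, which split acyl-CoA, Cars, the cysteinyl-tRNA synthetase, Retreg1, a receptor for autophagy of the endoplasmic reticulum, Cys1, a protein of cilia, and D16Ertd472e. Acot1 had 818.1, 740.3 and 298.4 in LUN against 1204, 304.9 and 642.4 in control fat at day 56, whereas its LUN mean was 16650 ± 1030 and its control mean 1075 ± 658 at day 21.

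The genes called at day 56 overlapped those of the other ages, mostly with the sign reversed. Of the 67 probes called at day 56, 30 (44.8%) were also called among the 895 of day 21, of which they are 3.35%. Only 2 had the same sign, the probe of Lor and 1 unnamed probe, and 28 had the opposite one. With day 112, 31 probes were shared (46.3% of the 67 and 17.0% of 182), and all 31 had the opposite sign. The control arrays of day 112 were less alike than those of day 56, with a lowest pair at r = 0.797 against 0.933. Most of the named genes with the opposite sign at either age were muscle genes, such as Acta1, Ckm, Tnnt3 and Mylpf. The probes that were higher in LUN fat at day 21 had a median change of -0.09 at day 56 and those that were lower a median of 0.05. The LUN effect was higher at day 56 than at day 112 for 97 probes and lower for 62 (0.294% and 0.188%), and 115 against 33 with cyclic loess.

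Of the 40 lists, 36 had no member past the test, and the other 4 were skeletal muscle, mammary and skin epithelium, lymph node stroma and erythroid cells. Without LUN array 3, 13 lists had a member past the test, and the 9 that were added had 1 call each, apart from the liver-type list with 2. The caveolae, cytoskeleton, collagen, cell cycle, ribosomal protein and clock lists had medians between -0.08 and 0.09. Of all 13840 named genes, 1113 had an unadjusted p under 0.05.

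**Figure D5:**
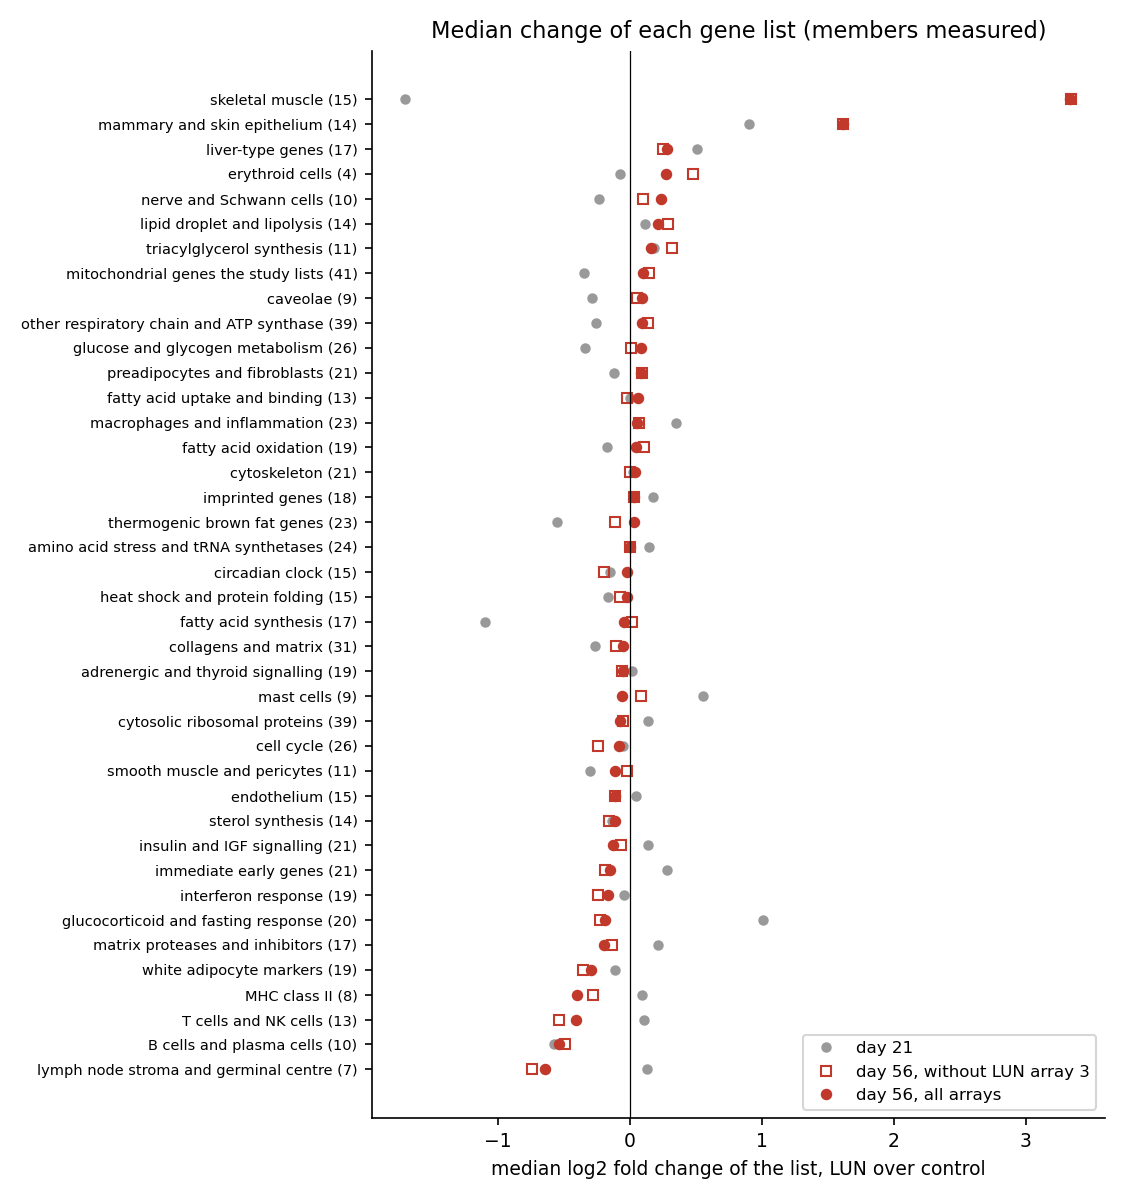
Median log2 fold change of LUN over control (horizontal axis) for 40 gene lists at day 56 with all arrays (filled red), at day 56 without LUN array 3 (open red) and at day 21 (grey), with the number of measured members after each name. Skeletal muscle at 3.33 and epithelium at 1.61 stand apart at day 56, and lymph node genes lie lowest at -0.64.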

How the data were processed

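RNA of inguinal fat was measured on Applied Biosystems Mouse Genome Survey arrays, 45 in all, with labelled cRNA read by chemiluminescence on the ABI 1700 system. The authors deposited raw intensity values per probe, positive and not normalized across arrays, and a table of log2 values that the authors had quantile-normalized. How the scanner software handled background is not stated in the sources at hand. The deposited log2 values correlated with those computed here at r of 0.9998 or higher on the arrays of day 56.

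For the main results quantile normalization was run here on the raw intensity values of the 45 arrays jointly, and log2 was taken with nothing added. Group means were fitted with limma 3.58.1 in R 4.3.3 over the 15 groups, with 30 residual and 2.74 prior degrees of freedom, and p-values were two-sided and adjusted by Benjamini-Hochberg over 33012 probes with a threshold of 0.05. Contrasts were LUN minus control at day 56, the same at days 21 and 112, LON minus control at day 56, and differences of the LUN effect between ages. The number of arrays limits the precision, and the only replication is 3 arrays of 1 pool. The steps were tested on simulated data with the array spread of each probe. There the test called 10 of 100 probes with a log2 change of 1 and 43 of 100 with a change of 2. Of 32812 unchanged probes it called 3. A gene that did not pass may therefore still differ between the pools.

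Probe symbols came from the platform annotation, updated to RefSeq symbols (GRCm38.p6) for 14402 probes. Of 33012 probes, 14411 had 1 symbol, 247 several and 18354 none. The members, the 40 gene lists and the rules were chosen with earlier results of these data known. Named genes were the 15 largest called changes in each direction with 1 symbol, mean signals brighter than the median probe and non-overlapping groups; up to 4 called members per list; 12 fat genes whatever their values; the 10 largest differences in each direction from day 21 whose array ranges did not overlap between ages; and up to 5 genes in each direction called alike at 2 ages. Krt8, Epcam, Lalba, Mb, Ryr1, Tnnt1, Myl1, Tnni2, Atp2a1, Cd3e, Cd4, Ccl19, Ccl21a, Hba-a1, Plin5, Ppara, Acly, Tsc22d3, Fkbp5, Acot11, Kcnk3 and Cxcl13 were named besides as list members, after their values were seen. No array was left out of the main results. Alternatives were other normalizations, an offset, a filter on signal, a replicate block, an intensity trend, fewer arrays in the fit, pools as replicates, leaving out arrays and the methods' t-test; the fit without LUN arrays 1 and 2 was chosen after seeing the data.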

Additional observations from a re-analysis of the deposited data

Results flagged for a closer look

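Each result below was picked out because the LUN effect differed between 2 ages in a test of the difference itself (limma, adjusted over all probes). For muscle genes the LUN effect at day 56 minus that at day 21, on the log2 scale, was 6.22 for Mybpc2, 5.57 for Tnnc2, 5.54 for Actn3, 5.42 for Ckm, 5.42 for Acta1, 5.36 for Hjv, 5.34 for Pgam2 and 5.32 for Tnnt3. It was 5.15 for Mylpf, 5.08 for Tpm1, 5.01 for Myoz1, 4.90 for Ttn, 4.83 for Pvalb, 4.11 for Hrc and 3.85 for Myot. The difference from day 21 passed for 12 and that from day 112 for 13 of the 15 skeletal muscle markers.

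Epithelial genes with a higher LUN effect at day 56 than at day 21 gave differences of 3.26 for Csn3 and 3.14 for Krt18. Among fat genes the differences were 5.65 for Lep, 2.75 for Ucp1 and 2.71 for Fabp3.

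The LUN effect was lower at day 56 than at day 21 for genes that had been higher in LUN fat at weaning, with -4.66 for Irf4, -4.57 for Hpd, -4.42 for Gtpbp2, -4.29 for Acot1, -4.17 for Cars and -4.10 for Retreg1, and with -4.06 for Cyp2f2, -4.04 for Acot5, -3.78 for Cys1 and -3.35 for D16Ertd472e. For genes lower in LUN fat at day 56 it was -2.38 for Cmah, -1.69 for Gramd3 and -1.24 for Glycam1. Groups of 3 arrays were not tested for outlying arrays.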

How the results depend on the processing

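The 12 skeletal muscle members that passed at day 56 numbered 12 in each fit that left out 1 array, 7 with only the arrays compared, and 0 with the methods' t-test after adjustment or with pools as replicates. With pools as replicates, 1 value was used for each of the 15 pools, with no replication of a pool. That fit added age and diet effects and a separate term for LUN at day 56. Its control level at day 56 was therefore estimated partly from the LON pool (muscle median 17.51, against 12.11 in control). Its error held the departures of pools from additive effects, so it could not test LUN against the control pool of day 56 alone. In this fit 0 probes were higher and 0 lower at day 56, and 1800 had an unadjusted p under 0.05. The methods' t-test called 754 probes higher and 1389 lower at the methods' threshold, and 1 and 0 after Benjamini-Hochberg. With only the arrays compared, 10 were higher and 0 lower (1 pool a group in each case). Leaving out the LON arrays gave 35 and 3. The lower count was 24 with an intensity trend, 22 with an offset, 48 among probes above the median signal and 2 without LUN arrays 1 and 2. Leaving out 1 array gave 39 to 238 higher and 8 to 164 lower probes, the highest values without LUN array 3. The cause was not tested for any of these.

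For the difference between days 56 and 21, median scaling gave 80 higher probes, probes above the median signal 283 higher and 535 lower, only the arrays compared 60 and 50, and leaving out the LON arrays 111 and 155. Leaving out 1 array gave 134 to 356 higher and 177 to 412 lower. For the difference between days 56 and 112, median scaling gave 62 and 30, cyclic loess 33 lower, probes above the median signal 168 lower, only the arrays compared 31 and 2, and leaving out the LON arrays 56 and 14. Leaving out 1 array gave 65 to 424 higher and 22 to 431 lower, the highest values without control array 3 of day 112 and the next without LUN array 3 of day 56. In the difference from day 21, cyclic loess turned the split of higher against lower probes, and median scaling made the mitochondrial and thermogenic medians at day 56 negative. No named gene that passed in the main results changed sign in the alternatives run.

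With the array number as a replicate block, 52 probes were higher and 15 lower at day 56, 178 and 253 in the difference from day 21 and 92 and 53 in that from day 112. Same-numbered LUN and control arrays did not deviate together (r = 0.0113, -0.0484 and -0.0509), so the numbers do not pair the arrays. The block ended the call of Ccdc134 among the named genes.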

Other observations

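Some lists that differed at weaning had no call at day 56. The 24 genes of amino acid stress and tRNA charging had 6 members that were higher in LUN fat at day 21, where 1.57% of all probes were higher, and a median of 0.00 at day 56, and the LUN effect was lower at day 56 for 4 of the 24, where 0.827% of all probes were lower in this difference (limma). Of 17 liver-type genes, 6 were higher at day 21 (1.57% of all probes), and the median was 0.51 at day 21 and 0.28 at day 56, with 5 lower in the difference (0.827% of all probes). Of 26 genes of glucose and glycogen metabolism, 4 had a higher LUN effect at day 56 than at day 21, where 0.566% of all probes did so, with list medians of 0.08 and -0.34 at the 2 ages. These 4 were Ppp1r3b and Ppp1r3c, which target phosphatase 1 to glycogen (differences of 4.07 and 2.55), Ldhb, a lactate dehydrogenase subunit (1.02), and Pygm, the glycogen phosphorylase of muscle (4.00); they were named after their values were seen. Pygm moved with the muscle markers, and the part of muscle RNA in the other 3 was not tested.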
